A study of Homo sapiens with 12 samples.

Results

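The subject here is the difference between 2 siRNA effects in 769-P, an established human cell line of clear cell renal carcinoma, read out by RNA sequencing. All 12 libraries of the series entered it, in 4 groups of 3. The siDRAIC group received an siRNA against DRAIC, a long non-coding RNA, and siDRAIC-NC is its control group. The sihnRNPA2B1 group received an siRNA that targets hnRNPA2B1, an RNA-binding protein, and sihnRNPA2B1-NC is its control group. All 4 groups are the same line in the same serum-containing medium, and no dose, time or further allele is stated. The labels leave NC unexplained, so reading each NC group as the control of its namesake siRNA follows from the names alone. They also do not state whether replicates are separate cultures, and p-values here therefore cover the spread between these libraries, which can be technical. The 2 count tables were joined by Ensembl ID, which gave 60617 genes in common. Of these, 17091 passed the low-count filter and were tested for the difference, defined per gene as the log2 fold change of siDRAIC over siDRAIC-NC minus the log2 fold change of sihnRNPA2B1 over sihnRNPA2B1-NC. A value above 0 means that the gene stood higher against its control in the siDRAIC experiment than in the sihnRNPA2B1 experiment. A gene is called when its Benjamini-Hochberg adjusted p is under 0.05 in edgeR's quasi-likelihood test, and levels are CPM, a gene's counts per 1000000 counts of its library.

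Small interfering RNAs lower a target by guiding its cleavage, and each also has effects of its own on other transcripts, so 2 siRNAs in 1 cell line can be read side by side for genes that move together and genes that part. hnRNPA2B1 is an abundant nuclear protein that binds pre-mRNA, takes part in splicing and microRNA processing and is described as a reader of N6-methyladenosine. DRAIC is a long non-coding RNA known from several cancers. Clear cell renal carcinoma typically has an active hypoxia response, in which the transcription factor HIF-2α, encoded by EPAS1, drives genes for metabolism, growth and pH control. The title of the series links DRAIC, hnRNPA2B1 and the growth factor receptor IGF1R.

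The targeted genes check the labels. HNRNPA2B1 was at 428, 396 and 435 CPM in the sihnRNPA2B1-NC libraries and at 291, 307 and 274 CPM in the sihnRNPA2B1 libraries. It was at 913, 704 and 721 CPM in siDRAIC-NC and at 734, 531 and 728 CPM in siDRAIC, where the groups overlapped. Its log2 fold change was -0.56 ± 0.05 (SE) in the sihnRNPA2B1 experiment and -0.25 ± 0.16 in the siDRAIC experiment, and their difference of 0.28 ± 0.17 was not called (edgeR adjusted p = 0.67, 95% interval -0.05 to 0.61). HNRNPA2B1 thus fell only to 0.677 of its control in the libraries named for it. DRAIC had 2, 1 and 2 counts in siDRAIC-NC and 3, 6 and 0 counts in siDRAIC, a ratio of 1.76 scaled to library totals with an exact 95% interval of 0.531 to 6.70 that covers counting error only. A fall of DRAIC was not detectable at this depth, so the group is called here by its label, the libraries labelled siDRAIC, and every direction below rests on that label. IGF1R was at 31.9, 20.1 and 26.1 CPM in siDRAIC-NC, 48.6, 47.7 and 50.4 in siDRAIC, 21, 23.6 and 23.2 in sihnRNPA2B1-NC and 28.9, 25 and 29.4 in sihnRNPA2B1. Its log2 fold change was 0.89 ± 0.19 in the siDRAIC experiment and just missed the call (edgeR adjusted p = 0.0538). After sihnRNPA2B1 it was 0.26 ± 0.08 and was called (edgeR adjusted p = 0.0188). These 2 changes were called under 5 and 10 of 14 alternatives. Neither pair of groups overlapped for IGF1R, which held for 15.6% of all tested genes in the siDRAIC experiment and 42.0% in the other, yet the log2 difference of 0.60 ± 0.19 was not called (edgeR adjusted p = 0.294), and it was called under 2 of 20 alternatives.

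The 2 experiments stood far apart before any siRNA was compared. Library totals were 30798303 to 42760528 counts, and the first principal component held 60.9% of the variance and separated the 6 libraries of one experiment from the 6 of the other. The control groups themselves differed by the same test in 8827 of 17091 genes (51.6%), and their libraries did not overlap in 9879 (57.8%). Experiment, control siRNA and any processing batch cannot be told apart in these control levels, which is why they are given beside each gene. Replicates were far less alike in the siDRAIC experiment, with a common biological coefficient of variation of 0.242 against 0.0642, and siDRAIC-NC replicate 1 lay apart from replicates 2 and 3 on the second component. The share of counts from mitochondrial mRNAs was 6.79 to 7.41% in siDRAIC-NC against 7.67 to 9.26% in siDRAIC, and 5.10 to 5.21% in sihnRNPA2B1-NC against 6.23 to 6.48% in sihnRNPA2B1. Its part in the results was not tested. Markers of the kidney tubule were present in part. Of 27 listed genes, 20 passed the filter for the difference and 3 had 0 counts in all 12 libraries. Their summed level averaged 1445 CPM in siDRAIC-NC and 922 CPM in sihnRNPA2B1-NC. PAX8, 1 of them, was at 464, 459 and 532 CPM in siDRAIC-NC and 504, 504 and 493 CPM in sihnRNPA2B1-NC.

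PRSS23, SGK1 and TXNDC5 rose in the libraries labelled siDRAIC and fell after sihnRNPA2B1, while CA12 and AKR1B10 did the reverse. In bulk RNA of a culture, a change in the share of some cells and a change in RNA per cell cannot be told apart. These 5 genes were called in both experiments with opposite directions, of 14962 genes tested in both (0.0334%), and all 5 were also called for the difference itself. The difference was called for 36 genes in all, 0.211% of those tested, of which 18 lay above 0 and 18 below (0.105% each), and 32 differed at least 2-fold. At an unadjusted p under 0.05 there were 1561 genes. With the replicate number as a block, which the siDRAIC libraries' own deviations warrant, 258 genes were called, and 640 with the block in the siDRAIC experiment only; both sets hold all 36. Single libraries moved the count as well: the fit that left out siDRAIC-NC replicate 1 called 349, the fit that left out siDRAIC-NC replicate 3 called 14, and the count was 9 to 11 without any 1 of the 6 libraries of the sihnRNPA2B1 experiment. PRSS23, CA12, AKR1B10, MMP2, MN1, WNT9A, NDRG1, ARHGEF37 and EPAS1 are the 9 genes called under all 20 alternatives. Every other gene of the 36 except STEAP1 and LBH lost the call whichever 1 library of the sihnRNPA2B1 experiment was left out, and those 2 lost it with some of these libraries. The list of genes opposed in both separate fits was less settled: 79 under the block, 23 if siDRAIC-NC replicate 1 was left out, 1 if siDRAIC replicate 2 or replicate 3 was, and 0 if replicate 2 or replicate 3 of siDRAIC-NC was.

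**Figure D1:**
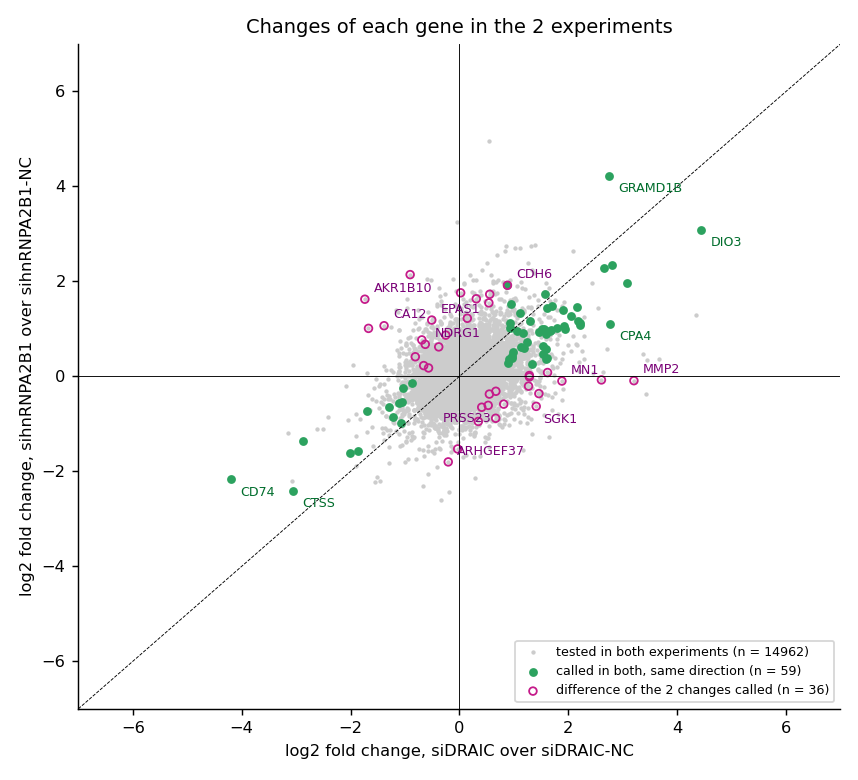
Log2 fold change of each gene over its own control in the siDRAIC experiment (x axis) and the sihnRNPA2B1 experiment (y axis); grey points are the 14962 genes tested in both, green points the 59 called in both in the same direction, rings the 36 called for the difference, and the dashed line marks equal changes. AKR1B10 and CA12 lie in the upper left, PRSS23 and SGK1 in the lower right, and the green points lie, by choice, in the upper right and lower left.

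CA12 encodes carbonic anhydrase XII, a membrane enzyme that hydrates carbon dioxide outside the cell and is a known target of the hypoxia response (chromosome 15, 63321378 to 63382161, minus strand, GRCh38). Its level was 142, 168 and 184 CPM in siDRAIC-NC and 72.4, 76.7 and 43.5 CPM in siDRAIC. It was 35.5, 30.3 and 33.7 CPM in sihnRNPA2B1-NC and 73.7, 75.1 and 64.2 CPM in sihnRNPA2B1. No siRNA library overlapped its control, and the 2 siRNA groups overlapped each other although siDRAIC-NC stood 4.96 times as high as sihnRNPA2B1-NC. The log2 fold changes were -1.38 ± 0.23 and 1.07 ± 0.07, and their difference was -2.49 ± 0.26 (edgeR adjusted p = 0.000602). AKR1B10, an aldo-keto reductase that detoxifies aldehydes and a known NRF2 target (chromosome 7, 134527592 to 134541408, plus strand), had the same shape. It was at 15.5, 6.79 and 8.79 CPM in siDRAIC-NC, 2.71, 3.44 and 3.16 in siDRAIC, 1.07, 0.915 and 1.31 in sihnRNPA2B1-NC and 3.82, 3.00 and 3.58 in sihnRNPA2B1. Its difference of -3.39 ± 0.36 was the largest of the 36 in size (edgeR adjusted p = 0.000602), and the control groups differed 9.44-fold, in the direction opposite to the treated change. Reads of AKR1B10 can be shared with its close relatives, so its level is uncertain.

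PRSS23, a secreted serine protease (chromosome 11, 86791059 to 86952910, plus strand, with FZD4 and several other annotated genes overlapping it), was at 234, 232 and 204 CPM in siDRAIC-NC and 383, 385 and 428 CPM in siDRAIC. In the other experiment it was at 109, 101 and 105 CPM in the controls and 69.8, 76.0 and 69.3 CPM after sihnRNPA2B1. The higher control level belonged to the experiment in which PRSS23 rose, so the 2 treated groups ended further apart than the controls had been. The difference was 1.36 ± 0.14 (edgeR adjusted p = 0.000602). SGK1, a kinase that serum and glucocorticoids induce and that regulates ion transport in the tubule, was at 29.6, 29.8 and 29.6 CPM in siDRAIC-NC and 56.5, 59.0 and 126 CPM in siDRAIC. It was at 88.9, 86.4 and 91.3 CPM in sihnRNPA2B1-NC and 54.4, 56.8 and 64.9 CPM in sihnRNPA2B1, so the controls were apart and the siRNA groups overlapped. TXNDC5, a disulfide isomerase of the endoplasmic reticulum, was at 4.74, 6.31 and 5.59 CPM in siDRAIC-NC and 18.3, 19.1 and 9.20 CPM in siDRAIC, against 13.9, 16.5 and 13.7 CPM and then 11.6, 11.3 and 12.4 CPM in the sihnRNPA2B1 experiment. The differences were 2.01 ± 0.33 for SGK1 and 1.78 ± 0.33 for TXNDC5 (edgeR adjusted p = 0.0231 and 0.0374). Their siDRAIC rises were called narrowly (edgeR adjusted p = 0.0462 for each), and under 5 and 6 of 14 alternatives. The siDRAIC changes of PRSS23, CA12 and AKR1B10 were called under 9, 11 and 10 of 14. In siDRAIC replicate 3 SGK1 was the highest and TXNDC5 the lowest of its group, and TXNDC5 shares its exons with an annotated read-through gene.

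Of the 36 genes, 23 were called in the sihnRNPA2B1 experiment and not in the siDRAIC experiment, 7 the other way round, 5 in both with opposite directions and 1, CDH6, in both with the same direction. A call in one experiment and none in the other is no difference by itself. Here the difference was tested directly. These classes come from the fits without the block. With the block, 1404 genes were called in the siDRAIC experiment, against 114 without it. The fitted changes had opposite signs for 26 of the 36, a count that the choice favours, since opposite changes add up in the difference. The control groups did not overlap for 32 of the 36 (88.9%, against 57.8% of all tested genes), with siDRAIC-NC higher in 15 and lower in 17.

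**Figure D2:**
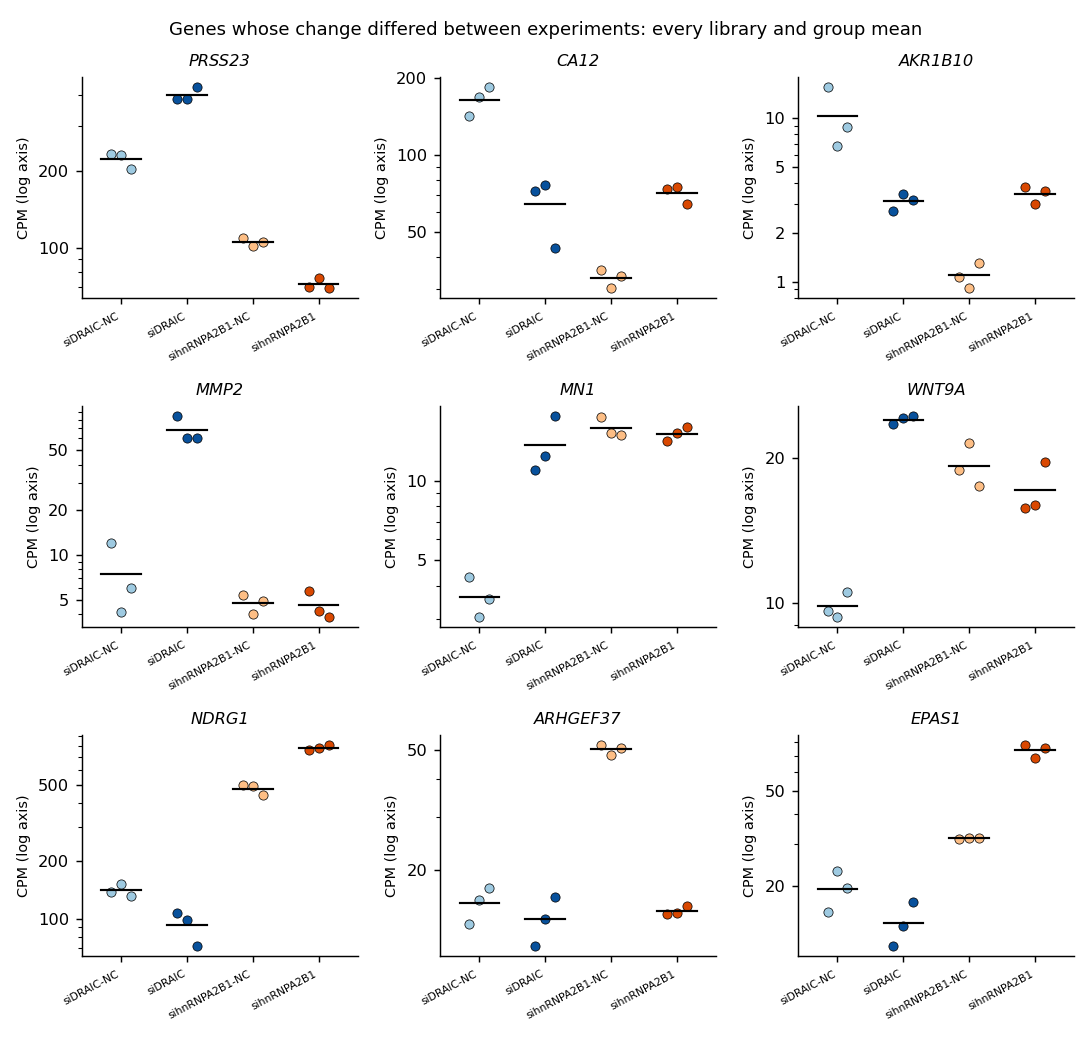
Level in CPM (log axis) of the 9 genes called for the difference under all 20 alternatives, with each of the 3 libraries of a group as a point and the group mean as a line. MMP2, MN1 and WNT9A rise in siDRAIC alone, ARHGEF37 falls in sihnRNPA2B1 alone, and CA12 and AKR1B10 converge from control levels that differ 4.96-fold and 9.44-fold.

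The 7 genes called in the siDRAIC experiment alone all rose there: MMP2, MN1, WNT9A, THBS1, LBH, ATP8A2 and TXNIP. MMP2, a secreted gelatinase that cleaves basement membrane collagen, was at 12.1, 4.16 and 5.98 CPM in siDRAIC-NC and 84.6, 60.1 and 60.8 CPM in siDRAIC. It stayed between 3.85 and 5.72 CPM in all 6 libraries of the other experiment. The fitted rise was 9.23-fold and the difference 3.27 ± 0.40 (edgeR adjusted p = 0.00269). MN1, a transcriptional coregulator, went from 4.32, 3.06 and 3.56 CPM to 11, 12.4 and 17.5 CPM, which brought it to the level of the sihnRNPA2B1 experiment, 14.1 to 17.3 CPM in its 6 libraries. WNT9A, a Wnt ligand, went from 9.60, 9.34 and 10.5 CPM to 23.6, 24.2 and 24.5 CPM, and stood at 19.0, 21.5 and 17.5 CPM in sihnRNPA2B1-NC and 15.8, 16 and 19.7 CPM in sihnRNPA2B1. The differences of MN1 and WNT9A were 1.95 ± 0.25 and 1.44 ± 0.20 (edgeR adjusted p = 0.00321 and 0.00733). THBS1, thrombospondin 1, a matrix glycoprotein that activates latent TGF-β, was at 324, 306 and 239 CPM in siDRAIC-NC and 578, 686 and 884 CPM in siDRAIC, and between 240 and 269 CPM in the other 6 libraries. Its control groups differed only 1.17-fold, which sets it apart from TXNIP, an inhibitor of thioredoxin, whose controls stood at 29.7 and 529 CPM. TXNIP rose to 73.0 CPM in siDRAIC and was at 548 CPM in sihnRNPA2B1.

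Among the genes called in the sihnRNPA2B1 experiment alone, 15 had risen and 8 had fallen there, and for 16 of these 23 the siDRAIC estimate had the opposite sign. ARHGEF37, a guanine nucleotide exchange factor by its sequence family, fell from 51.9, 48.1 and 50.6 CPM to 14.4, 14.5 and 15.3 CPM after sihnRNPA2B1. In the siDRAIC experiment it was at 13.3, 16 and 17.5 CPM in the controls and 11.2, 13.8 and 16.3 CPM in siDRAIC, already at the level to which it fell in the other experiment. NLRP1, an inflammasome sensor, and DYSF, which reseals torn membranes, also fell after sihnRNPA2B1 from control levels far above those of the siDRAIC experiment, but stayed above the latter. NLRP1 was at 22.6 CPM in sihnRNPA2B1-NC, 8.01 in sihnRNPA2B1 and 2.23 and 2.22 in siDRAIC-NC and siDRAIC. DYSF was at 166 and 88.0 CPM in the sihnRNPA2B1 experiment and at 10.8 and 14.1 CPM in the siDRAIC experiment. SYNPO, an actin-binding protein, PTK2B, a kinase of the focal adhesion family, and GCNT3, a glycosyltransferase of mucin-type sugars, fell after sihnRNPA2B1 by 0.65, 0.88 and 0.61 on the log2 scale. Their siDRAIC changes were 0.41 ± 0.18, 0.67 ± 0.26 and 0.53 ± 0.18, none of them called, and their differences were 1.02 ± 0.17, 1.51 ± 0.25 and 1.11 ± 0.19 (edgeR adjusted p = 0.0234, 0.0258 and 0.0282). For SYNPO and PTK2B the SE of the difference was below that of the siDRAIC change alone. The difference used 1 spread per gene for both experiments, so its SE and adjusted p can be too small.

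On the other side stood genes that rose after sihnRNPA2B1. EPAS1, the gene of HIF-2α (chromosome 2, 46293667 to 46386703, plus strand), was at 31.4, 31.8 and 31.8 CPM in sihnRNPA2B1-NC and 77.6, 68.4 and 75.1 CPM in sihnRNPA2B1. It was at 15.5, 22.9 and 19.6 CPM in siDRAIC-NC and 11.2, 13.5 and 17 CPM in siDRAIC, where the groups overlapped and no change was called. The difference was -1.73 ± 0.25 (edgeR adjusted p = 0.0086). NDRG1, a stress-responsive gene that hypoxia induces, rose from 498, 492 and 442 CPM to 756, 778 and 807 CPM after sihnRNPA2B1 and was at 138, 152 and 131 CPM in siDRAIC-NC and 106, 98.4 and 72.0 CPM in siDRAIC. Neither pair of groups overlapped for NDRG1, which held for 15.6% of all tested genes in the siDRAIC experiment and 42.0% in the other. The siDRAIC change of NDRG1, -0.63 ± 0.18, was not called (edgeR adjusted p = 0.176). Its difference was -1.34 ± 0.19 (edgeR adjusted p = 0.0086). GUCY1B1, the beta subunit of the nitric oxide receptor guanylate cyclase, rose 3.32-fold after sihnRNPA2B1 and was 1.47 times its control in siDRAIC, without a call. CDH6, a cadherin of the proximal tubule and of renal carcinoma, rose in both, 1.84-fold from 109 CPM in the siDRAIC experiment and 3.78-fold from 7.99 CPM in the other. The differences of GUCY1B1 and CDH6 were -1.21 ± 0.20 and -1.07 ± 0.18 (edgeR adjusted p = 0.0258 for each). VAV3, a guanine nucleotide exchange factor, UGT1A9, a glucuronosyltransferase whose exons overlap those of other UGT1A genes, and PLPPR5, a membrane protein of the phospholipid phosphatase-related family, rose after sihnRNPA2B1 and were not called in the siDRAIC experiment, with controls 6.81, 5.30 and 12.4 times as high in the siDRAIC experiment. PLPPR5 was at 0.603 CPM in sihnRNPA2B1-NC and 2.12 CPM in sihnRNPA2B1, against 7.5 and 7.69 CPM in the other experiment.

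HNRNPA3, a close relative of HNRNPA2B1, was at 183, 178 and 184 CPM in sihnRNPA2B1-NC and 301, 287 and 269 CPM in sihnRNPA2B1. It was at 326, 257 and 276 CPM in siDRAIC-NC and 246, 170 and 256 CPM in siDRAIC, so that neither siRNA group overlapped its control, although 257 and 256 CPM nearly touched. The siDRAIC change of HNRNPA3, -0.38 ± 0.17, was not called (edgeR adjusted p = 0.44). Its difference was -1.03 ± 0.18 (edgeR adjusted p = 0.0291). HNRNPA3 was 1 of 28 tested hnRNP family genes called for the difference (all genes 0.211%), where the block called 2 (258 of all genes). The level of HNRNPA3 is uncertain because near-identical copies exist in the genome. PSAT1, an aminotransferase of serine synthesis, had the smallest difference of all, -0.78 ± 0.14 (edgeR adjusted p = 0.0287). ABLIM3, an actin-binding LIM protein, had a difference of -1.26 ± 0.22 (edgeR adjusted p = 0.0291) and lost its call with limma-voom. MT-TP, the mitochondrial proline transfer RNA, rose from 43.2, 41.3 and 44.3 CPM to 105, 102 and 101 CPM after sihnRNPA2B1 and stayed between 34.6 and 51.7 CPM in the siDRAIC experiment (difference -1.11 ± 0.19, edgeR adjusted p = 0.0282). The strand used in counting is not stated and mitochondrial transcripts are first made as long precursors, so the source of these reads is uncertain. Just inside the threshold lay TXNIP (edgeR adjusted p = 0.044) and just outside it DCLK2, with a difference of 1.14 (edgeR adjusted p = 0.0512).

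The start-site sequences of the genes called under every alternative show what lies before them. RefSeq (GRCh38.p14) held an entry for 27 of the 36 genes, and AKR1B10, MMP2, MN1, NDRG1, EXT1, PTK2B, CDH6, MT-TP and NLRP1 had none. The 250 bases before the RefSeq start are printed 5′ to 3′ on the gene's own strand for EPAS1, WNT9A and ARHGEF37. The RefSeq start can differ from the outermost start in GENCODE 29: the windows of EPAS1 and ARHGEF37 lie inside the GENCODE span of their gene, and their last 5 and 25 bases fall in an annotated untranslated region. The windows of CA12 and PRSS23 fall in such a region over all 250 bases and are not printed. Capitals mark the core of the hypoxia response element, ACGTG or GCGTG, on either strand, so that CACGC and CACGT are matches on the opposite strand and overlapping matches run together. EPAS1 is shown as the hypoxia factor itself, WNT9A and ARHGEF37 as genes with a difference above 0.
EPAS1 at chr2:46297157-46297406, plus strand: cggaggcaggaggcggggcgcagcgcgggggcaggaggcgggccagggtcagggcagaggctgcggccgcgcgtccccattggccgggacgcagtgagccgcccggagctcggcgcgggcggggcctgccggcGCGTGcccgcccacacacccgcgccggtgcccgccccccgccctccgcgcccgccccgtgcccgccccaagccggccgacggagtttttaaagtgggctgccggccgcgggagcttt
WNT9A at chr1:227947933-227948182, minus strand: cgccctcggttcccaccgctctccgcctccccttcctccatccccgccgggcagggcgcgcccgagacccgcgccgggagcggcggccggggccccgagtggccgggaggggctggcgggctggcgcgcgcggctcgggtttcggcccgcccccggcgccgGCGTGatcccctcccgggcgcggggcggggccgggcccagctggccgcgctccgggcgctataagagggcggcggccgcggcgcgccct
ARHGEF37 at chr5:149581248-149581497, plus strand: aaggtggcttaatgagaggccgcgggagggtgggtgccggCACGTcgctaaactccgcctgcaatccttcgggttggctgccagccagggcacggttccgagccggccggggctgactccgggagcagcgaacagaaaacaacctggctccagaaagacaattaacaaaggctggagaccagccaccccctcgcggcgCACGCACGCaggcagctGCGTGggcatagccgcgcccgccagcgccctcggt
The windows of CA12, EPAS1 and WNT9A hold 1 match each, that of ARHGEF37 holds 4 and that of PRSS23 holds 0. Over the 27 genes with an entry, 15 hold at least 1 match, and so do 43.2% of all 35116 windows of this length. The antioxidant response core TGACNNNGC, searched on both strands, was found in 3 of the 27 and in 10.9% of all windows, and in 0 of these 5. A match here is a run of letters, not a bound site.

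CPA4, SLIT3, EDIL3, LRP1 and FBN1 were among the genes that rose in both experiments, and CD74 and CTSS among those that fell in both. Together 59 genes were called in both with the same direction (0.394% of 14962), 46 rising and 13 falling. They make up 59.0% of the 100 siDRAIC calls tested in the other experiment and 1.25% of the 4704 sihnRNPA2B1 calls tested in the siDRAIC experiment. The 2 lists differ in length because 114 genes were called in the siDRAIC experiment (0.713%) and 4781 in the other (30.4%). The smallest called change was 0.81 on the log2 scale in the first and 0.12 in the second, so a shared gene had to change strongly in the siDRAIC libraries. Accordingly 52 of the 59 had the larger change there, a count that the choice of members favours. The count of shared genes was 651 under the block, 635 if siDRAIC-NC replicate 1 was left out, 6 and 8 if replicates 2 and 3 of siDRAIC-NC were left out in turn, and 15 and 14 if replicates 2 and 3 of siDRAIC were. Across all 14962 genes the 2 changes had a Pearson correlation of 0.378 and a Spearman correlation of 0.349, and 63.2% had the same sign; genes are not independent replicates. The 2 comparisons share no library.

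**Figure D3:**
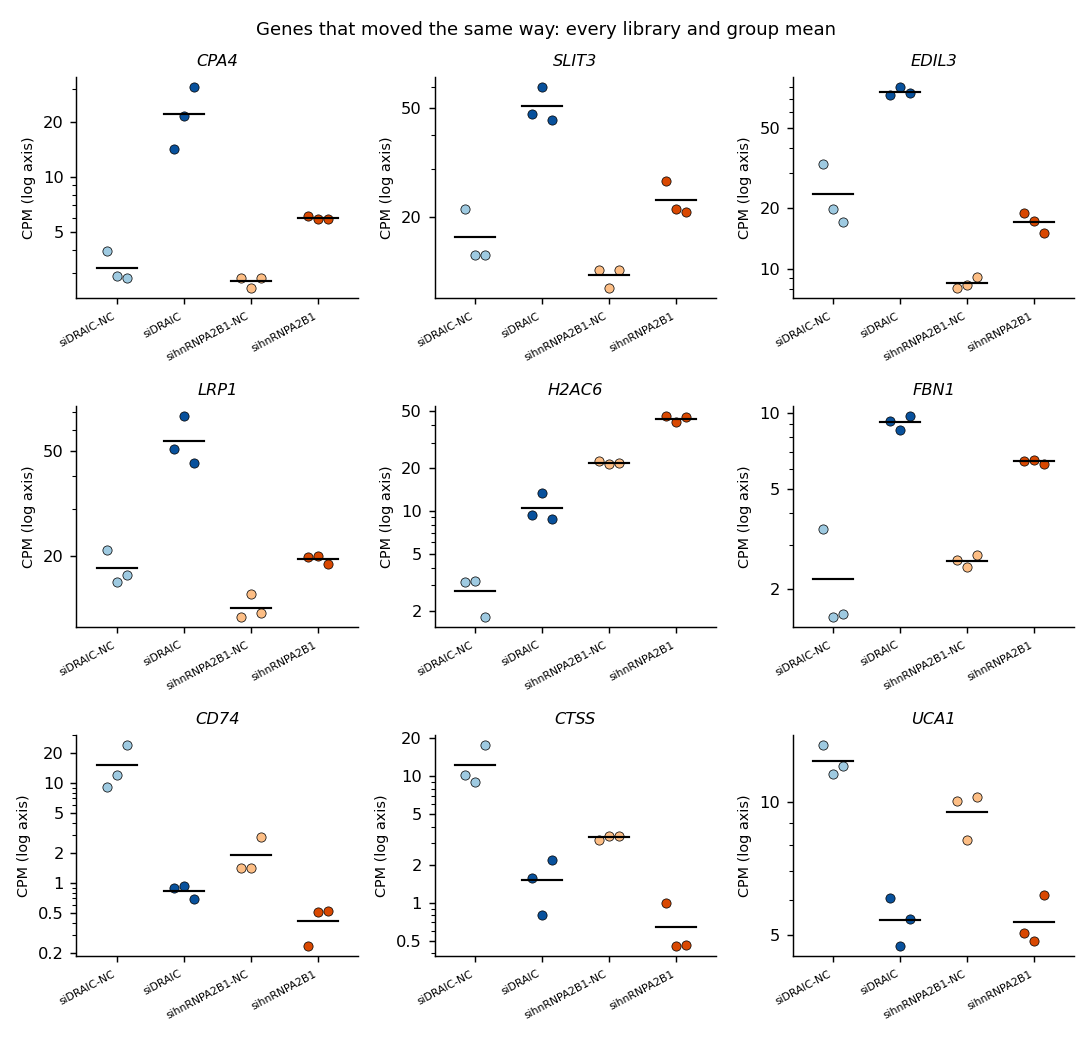
Level in CPM (log axis) of 9 genes called in both experiments in the same direction, with each of the 3 libraries of a group as a point and the group mean as a line. CPA4, SLIT3, EDIL3, LRP1, H2AC6 and FBN1 rise over their controls in both experiments, and CD74, CTSS and UCA1 fall in both, with no overlap between an siRNA group and its control.

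CPA4, a secreted carboxypeptidase, was at 3.95, 2.88 and 2.83 CPM in siDRAIC-NC and 14.2, 21.4 and 30.7 CPM in siDRAIC. It was at 2.83, 2.49 and 2.84 CPM in sihnRNPA2B1-NC and 6.17, 5.92 and 5.92 CPM in sihnRNPA2B1. The rises were 6.79-fold and 2.16-fold from like control levels, and the difference of 1.62 ± 0.32 just missed the call (edgeR adjusted p = 0.06). SLIT3, a guidance ligand, EDIL3, a secreted integrin ligand, and LRP1, an endocytic receptor, rose 3.00-fold, 3.22-fold and 3.01-fold in the siDRAIC experiment and 1.85-fold, 1.96-fold and 1.49-fold in the other. Their controls were 1.38, 2.74 and 1.41 times as high in siDRAIC-NC as in sihnRNPA2B1-NC. FBN1, the microfibril protein fibrillin 1, rose from 3.46, 1.55 and 1.60 CPM to 9.28, 8.51 and 9.69 CPM in the first and from 2.60, 2.44 and 2.72 CPM to 6.46, 6.5 and 6.29 CPM in the second. The controls of FBN1 overlapped and its siRNA groups did not, and its difference of 0.75 ± 0.32 was not called (edgeR adjusted p = 0.496, 95% interval 0.12 to 1.37). TM4SF4, a 4-span membrane protein, and GRAMD1B, which moves cholesterol from the plasma membrane, rose 6.95-fold and 6.75-fold in the first and 5.11-fold and 18.6-fold in the second, from control means of at most 1.76 CPM.

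Some shared genes changed by nearly the same amount. ITGB3, an integrin beta subunit, changed by 0.93 ± 0.17 and 1.02 ± 0.07 on the log2 scale, and the 95% interval of the difference was -0.46 to 0.21. RELN, the large extracellular glycoprotein reelin, changed by 1.12 ± 0.22 and 1.34 ± 0.07, with an interval of -0.72 to 0.23. ITGB8, another integrin beta subunit, changed by 1.57 ± 0.25 and 1.73 ± 0.13, with an interval of -0.76 to 0.38. These intervals bound the difference, and a missed call does not show that the changes were equal. IGFBP3, a carrier of insulin-like growth factors, was at 15.4, 22.2 and 10.6 CPM in siDRAIC-NC and 36.0, 54.8 and 34.1 CPM in siDRAIC, against 18.5, 17 and 17.9 CPM and 44.7, 43.2 and 47.7 CPM in the other experiment. It rose after sihnRNPA2B1 (edgeR adjusted p = 1.1e-13) and missed the call in the siDRAIC experiment (edgeR adjusted p = 0.0638), although the fitted changes were 1.36 and 1.31. JAG1, a Notch ligand, rose 2.19-fold from 346 CPM and 1.54-fold from 119 CPM. BMF, a proapoptotic BCL2 family member, rose 3.46-fold from 10.8 CPM and 2.03-fold from 3.90 CPM.

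The 13 genes that fell in both were led by CD74 and CTSS. CD74, the invariant chain that escorts MHC class II molecules, was at 9.11, 12.1 and 24 CPM in siDRAIC-NC and 0.886, 0.935 and 0.696 CPM in siDRAIC. It was at 1.40, 1.40 and 2.86 CPM in sihnRNPA2B1-NC and 0.235, 0.508 and 0.520 CPM in sihnRNPA2B1. The siRNA groups were 0.0546 and 0.222 of their controls, and the difference of -2.06 ± 0.61 was not called (edgeR adjusted p = 0.243). CTSS, cathepsin S, which trims the invariant chain, was at 10.3, 9.02 and 17.7 CPM and then 1.58, 0.795 and 2.19 CPM in the siDRAIC experiment, and at 3.12, 3.35 and 3.39 CPM and then 0.998, 0.457 and 0.468 CPM in the other. LAPTM5, a lysosomal membrane protein of leukocytes, fell in both as well, from control means of 4.19 and 1.02 CPM. CD74, CTSS and LAPTM5 are abundant in leukocytes, so markers of that class are given here: 3 of 19 (TYROBP, AIF1 and CD3E) had 0 counts in all 12 libraries. The summed level of the 19 was 3.08 to 3.71 CPM in siDRAIC-NC against 1.89 to 2.41 CPM in siDRAIC, and 11.6 to 14.2 CPM in sihnRNPA2B1-NC against 4.99 to 6.29 CPM in sihnRNPA2B1. ITGB2 made up most of it in the sihnRNPA2B1 experiment, at 11.2 CPM in the controls and 4.32 CPM after the siRNA. PTPRC, the pan-leukocyte marker, was at no more than 0.0568 CPM in any group. The sum was lower in both siRNA groups and was highest in sihnRNPA2B1-NC. CD74, CTSS and LAPTM5 were 7.99, 3.75 and 4.10 times as high in siDRAIC-NC as in sihnRNPA2B1-NC. The part of leukocyte markers in these falls was not tested. UCA1, a long non-coding RNA, C3, the central complement protein, PRSS8, the membrane protease prostasin, and GPAT3 and DGAT2, enzymes of triglyceride synthesis, fell in both. UCA1 was at 13.5, 11.6 and 12.1 CPM and then 6.07, 4.72 and 5.43 CPM in the first, and 10.1, 8.21 and 10.3 CPM and then 5.05, 4.85 and 6.16 CPM in the second. CCDC137, a nuclear protein, fell by 1.03 and by 0.25 on the log2 scale from control means of 98.2 and 99.0 CPM, the most nearly equal control levels among the falling genes named.

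The 33 gene lists were then described in both experiments, each against all genes, whose median change was -0.005 in the siDRAIC experiment and 0.008 in the other and whose median difference was -0.05. Hypoxia and HIF targets had the lowest median difference among lists with at least 10 tested members, -0.39 over 25 tested genes, and 20 of the 25 estimates lay below 0. CA12, EPAS1 and NDRG1 were called below 0 and 0 members above (0.105% of all genes in each direction), and 5 were called below 0 under the block. For this list and those below, the block called 115 of all 17091 tested genes above 0 and 143 below 0. With the block in the siDRAIC experiment only, these numbers were 277 and 363. After sihnRNPA2B1, 9 of the 25 rose and 6 fell (all genes 15.1% and 15.4%). In the siDRAIC experiment 0 of 24 rose and 2 fell, CA12 and STC1 (all genes 0.582% and 0.131%). The summed level of the 28 listed genes was 2018 to 2844 CPM in siDRAIC-NC against 1521 to 1735 CPM in siDRAIC, and 3094 to 3163 CPM in sihnRNPA2B1-NC against 3432 to 3524 CPM in sihnRNPA2B1, so that none of the 4 groups overlapped. In the sihnRNPA2B1 experiment the sum averaged 3138 and then 3483 CPM, and NDRG1 alone averaged 477 and then 780 CPM. The rise of the sum there does not stand for the other members. Of the 24 members tested in both, 10 had estimates of opposite sign, 10 were below 0 in both and 4 above 0 in both, so 58.3% had the same sign, against 63.2% of all genes. BNIP3 and CCND1 were among those below 0 in both, and KDM3A, a histone demethylase, and P4HA1, a collagen prolyl hydroxylase, among those above 0 in both. SLC2A1, the glucose transporter, had estimates of -0.49 ± 0.17 and 0.28 ± 0.06 and a difference of -0.80 ± 0.17 that was not called (edgeR adjusted p = 0.0884).

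**Figure D4:**
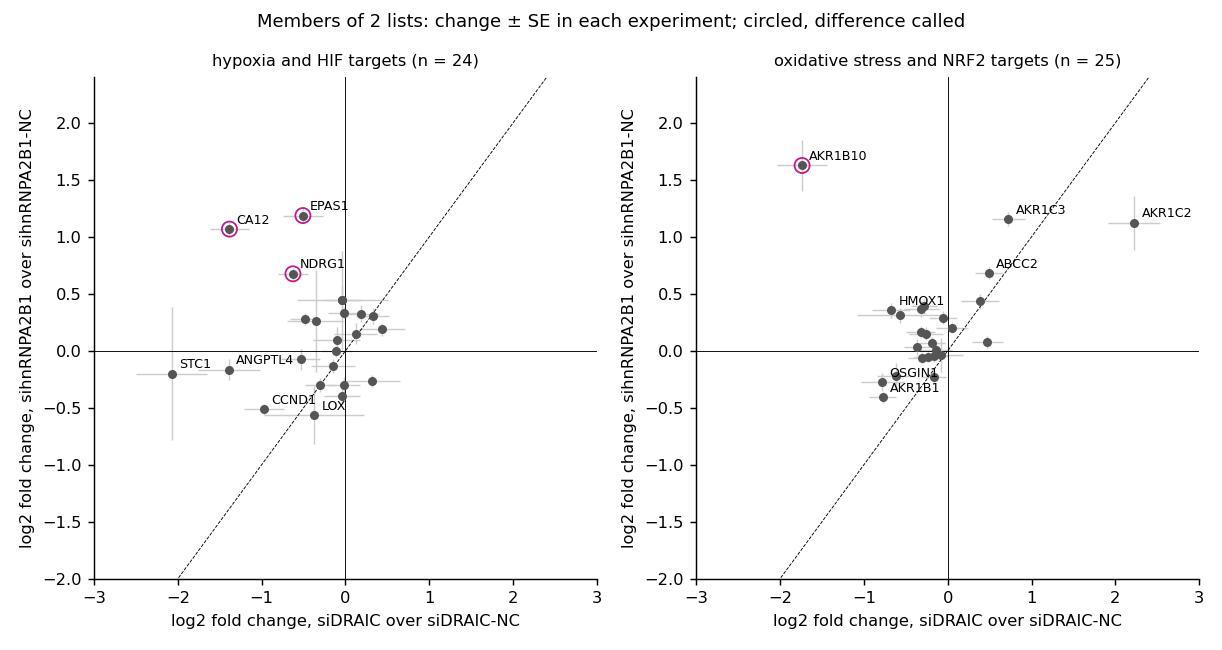
Log2 fold change ± SE of each list member in the siDRAIC experiment (x axis) and the sihnRNPA2B1 experiment (y axis), for 24 hypoxia genes (left) and 25 oxidative stress genes (right) tested in both; circled genes were called for the difference and the dashed line marks equal changes. CA12, EPAS1, NDRG1 and AKR1B10 lie in the upper left quadrants, and AKR1C2 and AKR1C3 lie in the upper right.

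Oxidative stress and NRF2 targets came next at a median difference of -0.38, with 22 of 25 estimates below 0. AKR1B10 alone was called, and under the block 4 were called below 0, where 143 of all genes were. After sihnRNPA2B1, 13 of 25 rose and 3 fell (all genes 15.1% and 15.4%). In the siDRAIC experiment AKR1C2 rose and AKR1B10 fell (all genes 0.582% and 0.131%), so 2 aldo-keto reductases of this list moved apart there. AKR1C2 rose in both, from 4.03, 1.63 and 2.04 CPM to 14.1, 11.2 and 10.8 CPM and from 1.66, 1.30 and 1.83 CPM to 4.79, 2.21 and 3.69 CPM. Reads of AKR1C2 and AKR1C3 can be exchanged between these near-identical genes. HMOX1, heme oxygenase 1, and GCLC, an enzyme of glutathione synthesis, rose after sihnRNPA2B1 by 0.36 and 0.37 on the log2 scale, with siDRAIC estimates of -0.67 and -0.31 that were not called, nor were the differences. Heat shock genes had a median difference of -0.34 with 0 of 17 called (1 under the block) and a control sum 2.08 times as high in siDRAIC-NC as in sihnRNPA2B1-NC.

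YAP/TEAD targets, genes that respond to cell tension and contact, had estimates of the difference mostly above 0. Their median change was 0.09 in the siDRAIC experiment and -0.28 in the other, and the median difference was 0.28 with 21 of 26 estimates above 0. THBS1 was the only member called for the difference, and 3 were called above 0 under the block. After sihnRNPA2B1, 18 of 26 fell and 3 rose (all genes 15.4% and 15.1%), while 1 of 26 rose in the siDRAIC experiment (all genes 0.582%). CCN2, a classical target, was at 3.12, 3.26 and 4.41 CPM in siDRAIC-NC and 5.79, 6.17 and 10.5 CPM in siDRAIC, and at 8.21, 7.98 and 6.42 CPM in sihnRNPA2B1-NC and 3.90, 4.75 and 5.59 CPM in sihnRNPA2B1. The groups of CCN2 did not overlap in either experiment, and its difference of 1.70 ± 0.35 just missed the call (edgeR adjusted p = 0.063). The list's control sum was 2.22 times as high in sihnRNPA2B1-NC. Genes of the type I interferon response and p53 targets had median differences of 0.25 and 0.20 with 0 called in each; under the block 1 interferon gene was called and 0 p53 targets. In the insulin-like growth factor list the median changes were 0.55 and 0.09, the median difference was 0.25, and 0 of 14 tested members were called for it; under the block 2 were, and 5 with the block in the siDRAIC experiment only. Extracellular matrix genes had a median difference of 0.18, with THBS1 called and 3 genes called under the block; EDIL3, FBN1 and COL6A3 were called up in both experiments.

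**Figure D5:**
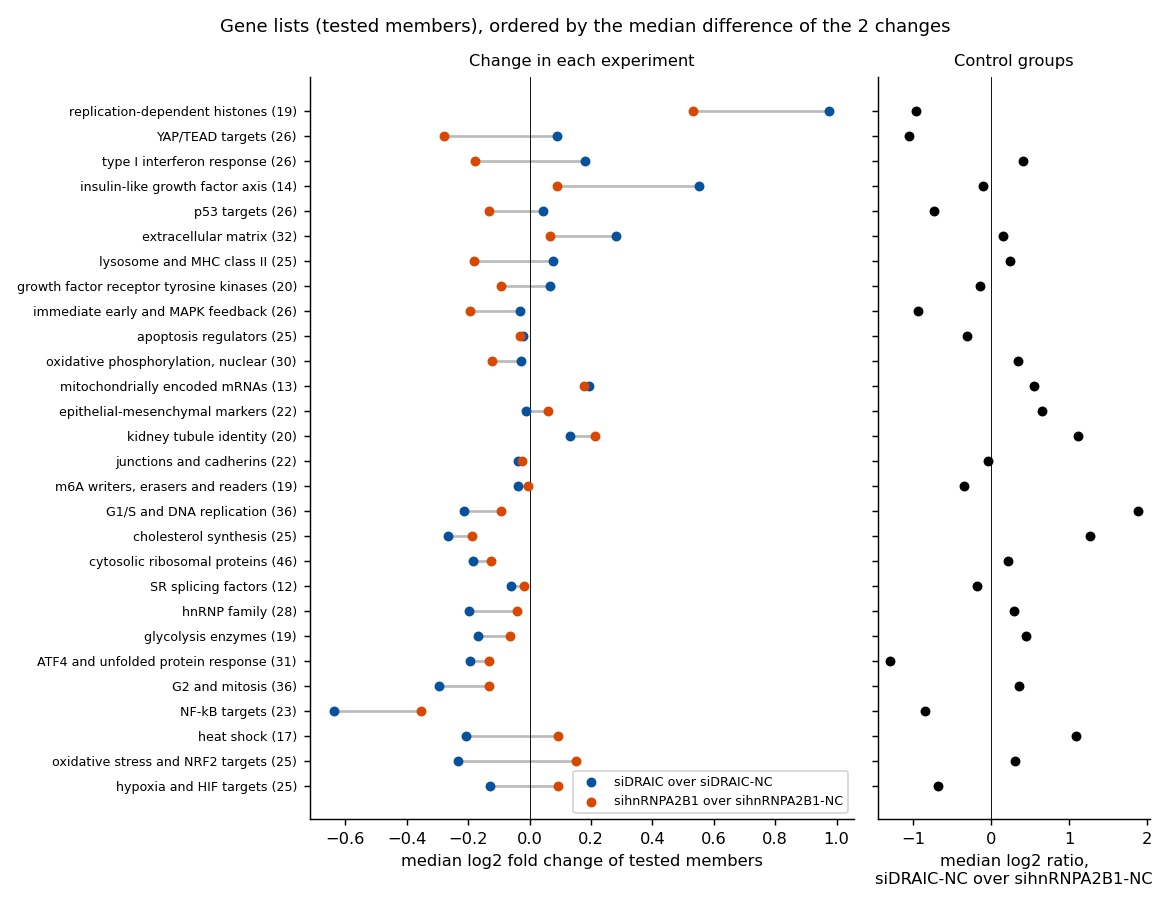
Median log2 fold change of the tested members of each list in the siDRAIC experiment (blue) and the sihnRNPA2B1 experiment (orange), ordered by the median difference, with the number tested for the difference in brackets (left), and the median log2 ratio of the 2 control groups (right). Replication-dependent histones, YAP/TEAD targets and interferon genes sit at the top, and NRF2 and hypoxia targets sit at the bottom. The 2 medians lie on opposite sides of 0 for NRF2, hypoxia and YAP/TEAD targets and interferon genes, among others.

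Given next are 5 lists in which most members had estimates of the same sign in both experiments and 0 were called in the siDRAIC experiment. They are not the only such lists. Splicing factors of the SR family had the same sign in 10 of 12 members, and N6-methyladenosine writers, erasers and readers in 16 of 19. Of all genes tested in both, 63.2% had the same sign. NF-kB targets, genes of inflammation, were below their controls by estimate in both experiments in 16 of 19 members tested in both, with medians of -0.64 and -0.35. After sihnRNPA2B1, 15 of 21 fell and 3 rose. Genes of mitosis were below control in both in 27 of 35, with 14 called down after sihnRNPA2B1, and genes of DNA replication in 25 of 35, with 11 called down. The control sum of the replication genes was 3.43 times as high in siDRAIC-NC, so the 2 experiments began from unequal levels. Cytosolic ribosomal protein genes were below control in both in 38 of 46, and 22 fell and 2 rose after sihnRNPA2B1. The 13 mitochondrially encoded mRNAs were above control in both in 13 of 13, with 11 called up after sihnRNPA2B1. Of all 14962 genes tested in both, 4740 were below 0 in both and 4717 above 0 in both, and after sihnRNPA2B1 15.1% of all tested genes were called up and 15.4% down.

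Replication-dependent histone genes, whose transcripts normally lack a poly(A) tail, had a median change of 0.98 over 15 tested in the siDRAIC experiment, the highest among lists with at least 10 tested members, against 0.53 over 17 tested in the other. H2AC6 and H2BC5 were called up in both. H2AC6 was at 3.15, 3.21 and 1.80 CPM in siDRAIC-NC and 9.36, 13.4 and 8.75 CPM in siDRAIC, and at 22.3, 21.1 and 21.4 CPM in sihnRNPA2B1-NC and 46.0, 41.5 and 45.1 CPM in sihnRNPA2B1. The treated siDRAIC libraries thus stayed below the controls of the other experiment. The median difference was 0.42 over 19 tested members with 0 called, and 1 was called under the block. Reads of histone genes can be split between near-identical copies, and the summed level of the list was 23.5 to 27.9 CPM in siDRAIC-NC and 58.6 to 62.4 CPM in sihnRNPA2B1-NC.

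Among kidney tubule genes CDH6 was the 1 call of 20 for the difference, and 10 of 17 members tested in both were above control in both experiments. Among junction and cadherin genes CDH6 was again the 1 call of 22, and among epithelial-mesenchymal markers MMP2 was the 1 call of 22, with 10 of 20 members tested in both of opposite sign. Under the block the calls were 1 for kidney tubule, 2 for junction and 2 for epithelial-mesenchymal genes, and with the block in the siDRAIC experiment only 2, 3 and 3. VIM, the mesenchymal filament gene, had an estimated change of -0.01 and 0.04, and the 95% interval of its difference was -0.35 to 0.19. Of the lists of other cell types, fibroblast markers had 4 tested members of 12 and a median siDRAIC change of 1.43, and their summed level was 22.1 to 29.2 CPM in siDRAIC-NC against 34.1 to 47.2 CPM in siDRAIC, and 17.7 to 19.9 CPM in sihnRNPA2B1-NC against 18.4 to 19.9 CPM in sihnRNPA2B1. ACTA2 made up most of the sum and COL1A1 rose in the siDRAIC experiment, while COL1A2, DCN, LUM and PDGFRA were at no more than 0.0741 CPM in any group. The sum was higher in siDRAIC, where MMP2, THBS1 and several matrix genes rose. In the other experiment it overlapped its control, while EDIL3, FBN1 and COL6A3 rose there as well. The part of fibroblast markers in these rises was not tested.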

How the data were processed

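RNA of 12 libraries of 769-P cells was sequenced, and the authors deposited raw read counts per Ensembl gene in 2 tables, 1 per experiment. Per the submitters' processing notes, hg38, fastp 0.23.2, STAR 2.7.10a, StringTie and DESeq2 were used. No source used here states the counting program, annotation or strand. The tables held the same 60617 IDs, of which 58542 were in the GENCODE 29 annotation used for names and positions, and all sample columns were used. Library totals of 30798303 to 42760528 counts limit only genes of a few counts per library. The difference was fitted over all 12 libraries and each experiment also alone, with edgeR 4.0.16 (TMM, filterByExpr with a minimum count of 10, quasi-likelihood F test, Benjamini-Hochberg adjustment over all genes tested) in R 4.3.3. The test of the difference assumes 1 spread per gene for both experiments, although their replicates were not equally alike. For some genes, PRSS23 and SYNPO among them, the SE of the difference was below that of the siDRAIC change alone. Standard errors, intervals and adjusted p-values of the difference can thus be too small where the siDRAIC libraries spread more. A standard error is the log2 change divided by the square root of F and is approximate, and 95% intervals are normal intervals made from it. CPM values use raw library totals, and fold changes use TMM. limma 3.58.1 (voom) and DESeq2 1.42.0 served as alternatives, and the code was tested on simulated data.

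The members and the 33 gene lists (825 symbols, 3 without an ID) were chosen with earlier results of these data known. Genes named were HNRNPA2B1, IGF1R and DRAIC; up to 10 per sign of the difference with adjusted p under 0.05, a log2 difference of at least 1 and a mean of 2 CPM in some group; up to 8 per combination of signs among genes called in both experiments; and up to 3 called members per list. All further genes in the text were picked with their values in view.

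Replicate numbers come from the labels. In the siDRAIC experiment, same-numbered libraries deviated together from their group means, with correlations across genes of 0.438, 0.198 and 0.249, so the numbers were taken to pair these libraries in the blocked fits. All values and calls not named as blocked come from fits without the block, which leave this pairing out. In the sihnRNPA2B1 experiment the correlations were -0.0152, -0.0207 and -0.0385, and the numbers did not pair them.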

Additional observations from a re-analysis of the deposited data

Results flagged for a closer look

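All of these results differ between the 2 experiments by the test of the difference itself, edgeR's contrast of the 2 changes over all 12 libraries with adjusted p under 0.05, which called 36 genes. Among the genes named, the siDRAIC change exceeded the sihnRNPA2B1 change on the log2 scale by 1.36 for PRSS23, 3.27 for MMP2, 1.95 for MN1, 1.44 for WNT9A, 1.56 for ARHGEF37, 1.26 for THBS1, 2.01 for SGK1, 1.02 for SYNPO, 1.51 for PTK2B, 1.11 for GCNT3 and 1.78 for TXNDC5. The difference was -2.49 for CA12, -3.39 for AKR1B10, -1.34 for NDRG1, -1.73 for EPAS1, -1.21 for GUCY1B1, -1.07 for CDH6, -1.11 for MT-TP, -1.77 for PLPPR5, -1.26 for ABLIM3, -1.03 for HNRNPA3 and -0.78 for PSAT1. Groups of 3 libraries were too small for a test of single outlying libraries.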

How the results depend on the processing

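The count of genes called for the difference, 36 as reported, was 196 with DESeq2 and 263 with no filter on low counts, and stayed within 1.5 times with DESeq2's size factors in edgeR (38), limma-voom (27), voom with quality weights (52), a 1 CPM filter (35) and a 2-fold minimum (32). Leaving out 1 library gave 9 to 349. The siDRAIC count of 114 became 389 with DESeq2, 520 with no filter, 73 with limma-voom, 71 with quality weights, 61 with a 1 CPM filter and 665 in 1 fit of all libraries, and 9 to 1035 with 1 library left out. The sihnRNPA2B1 count of 4781 became 283 in 1 fit of all libraries and 449 at 2-fold, and 3318 to 5500 with 1 library left out. The 59 shared genes became 199 with DESeq2, 293 with no filter, 40 with DESeq2's size factors, 35 with limma-voom, 35 with quality weights, 27 with a 1 CPM filter, 87 in 1 fit of all libraries and 24 at 2-fold, and 6 to 635 with 1 library left out. The 5 opposed genes became 12, 13, 3, 3, 3 and 3 in the first 6 of those settings and 2 at 2-fold, and 0 to 23 with 1 library left out. The 1 fit of all libraries uses 1 estimate of spread per gene for both experiments. Its common biological coefficient of variation was 0.182, against 0.242 in the siDRAIC experiment alone and 0.0642 in the other alone. The cause of these shifts was not tested.

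With the replicate number as a block, the counts were 258 for the difference, 1404 for siDRAIC, 4414 for sihnRNPA2B1, 651 shared and 79 opposed. With the block in the siDRAIC experiment only, an alternative chosen after seeing the data, 640 differed. Both blocked fits of the difference kept all 36 genes.

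Near-zero estimates changed sign when 1 library was left out: the sihnRNPA2B1 change of MMP2 ranged from -0.27 to 0.018 and that of THBS1 from -0.056 to 0.021, the siDRAIC change of PLPPR5 from -0.11 to 0.18, and the differences of PRSS8 and LINC02693 from -0.48 to 0.014 and from -0.32 to 0.0024. PLPPR5 was also at -0.00024 with no filter and -0.0091 in 1 fit of all libraries. For the genes named, 668 of the recomputed differences kept direction and side of the threshold, 103 lost the call and 27 gained one. Among genes with few counts, such as DRAIC, depth sets the limit, and counting error alone left a 95% interval of its ratio of 0.531 to 6.70.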
